A study of Mus musculus with 9 samples.

Results

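Octyl-L2HG given together with oxamate was compared with no treatment in cultured mouse spermatocytes, over 6 of the 9 libraries of the series, 3 on each side. The cells came from C57Bl mice that carry tdTomato under a germ-cell-specific promoter. They were sorted from enzymatically dissociated testes at the pachytene and diplotene stages, and every library used poly-A capture with the KAPA Stranded kit. The treated cells had 48 h with oxamate at 24 mM and octyl-L2HG at 0.3 mM. The untreated cells received neither, and the labels give no culture time for them, so treatment and time in culture cannot be told apart. The third group of the series, 3 libraries with oxamate alone at the same dose and time, is given beside the comparison as values only. No group received octyl-L2HG without oxamate or another octyl ester, so each difference is that of the combination. Whether the 3 libraries of a group stand for separate cultures or animals is not stated in the labels. The p-values therefore measure only how far these libraries spread, and that spread may be technical.

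Pachytene spermatocytes hold their homologous chromosomes in full synapsis, and diplotene cells release them while crossovers keep them linked. At these stages the X and Y chromosomes are silenced, and many genes that serve spermatids and sperm are already transcribed. Oxamate is a pyruvate analogue that inhibits lactate dehydrogenase, an enzyme that can also reduce 2-oxoglutarate to L-2-hydroxyglutarate. Octyl-L2HG is an ester of that metabolite that crosses membranes, and L-2-hydroxyglutarate competes with 2-oxoglutarate in dioxygenases such as the JmjC histone demethylases and TET enzymes.

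All levels are in CPM, a gene's count relative to its library's total after scaling by the trimmed mean of M values, fold changes are from limma-voom, and a gene was called at a Benjamini-Hochberg adjusted p under 0.05 over the 18234 genes tested. Library totals ran from 24849620 to 46671048 counts. On the first principal component of all 9 libraries, which held 68.08% of the variance, the untreated libraries lay between -41.3 and -31.9 and the oxamate libraries between -26.1 and -12.5. Of the libraries with octyl-L2HG and oxamate, A and B lay at 62.3 and 66.2, and C stood apart from them at 33.7. The markers of pachytene and diplotene cells summed to 11719, 12217 and 12029 CPM in untreated libraries A, B and C and to 10400, 11169 and 9755 CPM in the treated ones, so the cells carried the transcripts of their labelled stage in both groups. The markers of elongating spermatids, a later stage, summed to 1393, 1189 and 1354 CPM and to 126, 139 and 350 CPM. In bulk RNA, fewer cells of a kind and less RNA per cell cannot be told apart.

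The combined treatment went with a large difference across the transcriptome. Of the 18234 genes tested, 6988 (38.3%) were called, 3143 higher (17.2%) and 3845 lower (21.1%). The falls were much the deeper. Of the genes called lower, 2484 had fallen at least 2-fold, 1257 at least 4-fold and 544 at least 8-fold. Of the genes called higher, 557 had risen at least 2-fold, 28 at least 4-fold and 0 at least 8-fold. The median log2 change was -1.44 among genes called lower and 0.65 among genes called higher, and 0.014 over all tested genes. For 51.3% of tested genes the 3 libraries of one group all lay above the 3 of the other, and this held for 3071 of the genes called higher and for 3758 of those called lower. The count of rises rested most on the untreated libraries: it was 2087 without untreated library B and 1968 without untreated library C. Without treated library C the counts were 2798 higher and 3633 lower.

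**Figure D1:**
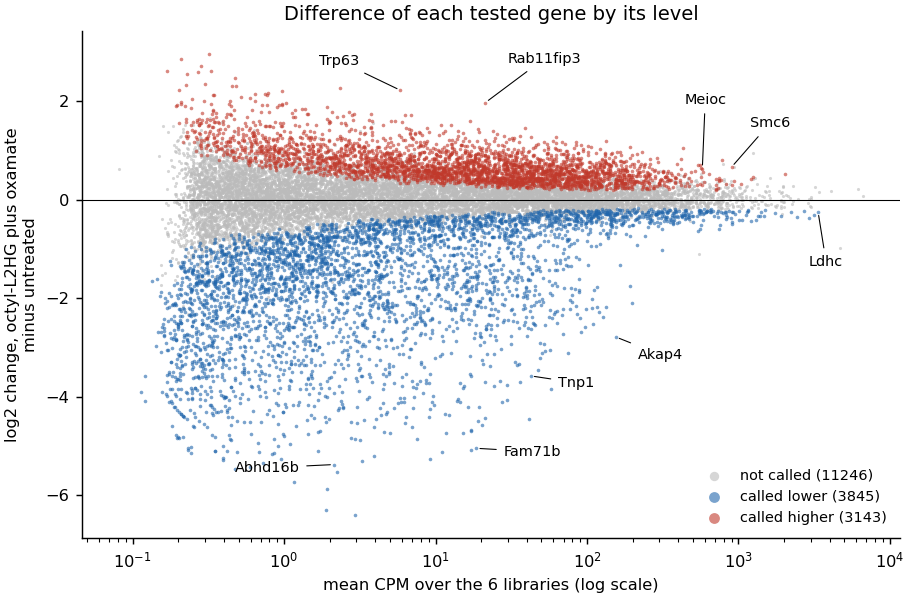
Log2 change of each tested gene, octyl-L2HG plus oxamate minus untreated, against its mean CPM over the 6 libraries on a log axis, 1 point a gene, with genes called higher in red, called lower in blue and not called in grey. The 3845 falls reach far below a log2 change of -4, while few of the 3143 rises pass 2.

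The genes that fell deepest carried little of the RNA. Genes called lower by at least 4-fold held 1.67%, 1.33% and 1.41% of the counts of untreated libraries A, B and C and 0.18%, 0.17% and 0.43% of those of the treated libraries. All genes called higher together held from 13.14% to 13.27% of counts in untreated cells and from 18.24% to 18.56% in treated cells. Rises were commonest at intermediate levels: 27.5% of genes with a mean from 10 to 100 CPM were called higher, against 7.36% of those under 1 CPM. Falls went the other way, with 24.5% of genes under 1 CPM and 15.3% of those at or above 100 CPM called lower. Of the 1257 genes that fell at least 4-fold, the highest treated library was C for 1056 of them, A for 85 and B for 116.

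Oxamate alone differed from untreated for 1747 genes (9.58%), and the combination differed from oxamate alone for 3550 genes (19.5%). These comparisons share libraries with the one described here, so only values are set side by side. The genes called higher with the combination had a median log2 difference of 0.37 between oxamate alone and untreated and of 0.27 between the combination and oxamate alone. For the genes called lower the same medians were -0.24 and -1.31. For the genes that fell at least 4-fold they were -0.32 and -2.54.

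The 12 largest named falls were those of Abhd16b, Actrt3, Spata31d1c, Trim42, Fam71a, Spata31d1b, Fam71b, Ttc24, Fndc8, F5, Spem1 and Tssk6, with log2 changes from -5.38 to -4.73. Several of them are known from the late, haploid stages of sperm formation: Actrt3 encodes an actin-related protein of the sperm head, Spem1 a protein needed for sperm maturation and Tssk6 a testis-specific serine kinase. Abhd16b (ENSMUSG00000055882, chromosome 2, 181493206 to 181494980 on GRCm38) encodes a protein of the abhydrolase family. It stood at 4.85, 3.37 and 4.20 CPM in untreated libraries and at 0.0841, 0 and 0.304 CPM with the combination. The groups were far apart and treated library B held no read of it (log2 change -5.38, SE 0.66, limma adjusted p = 9.2e-05). Fam71b (ENSMUSG00000020401, chromosome 11, 46396559 to 46407982) was the most abundant of the 12, at 37.3, 35.0 and 35.3 CPM in untreated libraries. It read 26.4, 26.8 and 34.1 CPM with oxamate alone and 0.546, 0.968 and 2.41 CPM with the combination, a 33.1-fold fall (log2 change -5.05, SE 0.35, limma adjusted p = 8.4e-06). The Fam71 and Spata31d1 genes belong to families of close copies between which reads could have been split, as do the H2al histone variants named later, so their single values are uncertain. No label says how strand was used in counting, and genes that overlap on opposite strands may share reads.

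The 12 largest named rises were those of Zfp455, Trp63, Rab11fip3, Nova1, Gata3, Fan1, Npc1l1, Twsg1, Cabp1, Cept1, Khnyn and Tas1r3, with log2 changes from 2.27 to 1.71. Trp63 (ENSMUSG00000022510, chromosome 16, 25683763 to 25892102), a transcription factor of the p53 family known for guarding oocytes, stood at 1.85, 2.59 and 1.68 CPM in untreated libraries. It reached 5.77, 9.82 and 6.49 CPM with oxamate alone and 8.34, 12.2 and 8.45 CPM with the combination, so every treated library lay above every untreated one (4.66-fold, log2 change 2.22, SE 0.25, limma adjusted p = 5.9e-05). Rab11fip3 (ENSMUSG00000037098, chromosome 17, 25989036 to 26069555), an effector of the recycling GTPase Rab11, rose from 9.19, 8.70 and 7.98 CPM to 32.6, 37.5 and 32.3 CPM. Its log2 change was 1.97 (SE 0.12, limma adjusted p = 6.4e-06), and oxamate alone read 28.4, 29.0 and 24.1 CPM. Fan1, a nuclease of DNA crosslink repair, rose from 1.28, 1.04 and 1.23 CPM to 4.17 ± 0.364 CPM (mean and SD). Nova1, a splicing regulator, Gata3, a zinc finger transcription factor, and Cept1, an enzyme of phospholipid synthesis, were all under 1 CPM on average in untreated cells and between 2.07 and 3.01 CPM in treated cells.

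Among abundant genes that changed at least 1.5-fold, the rises were Smc6, mt-Nd1, Meioc, Usp32 and Ccp110 and the falls Pebp1, Ubb, Hk1, Ndufaf3 and Actl7b. Usp32, a ubiquitin-specific protease, read 440, 444 and 444 CPM in untreated libraries and 680, 716 and 692 CPM in treated ones (log2 change 0.65, SE 0.06, limma adjusted p = 3.0e-05). Ccp110, a centriole capping protein, rose from 427 ± 13.1 to 696 ± 15.7 CPM (mean and SD, n = 3 here and below). Meioc, which keeps germ cells in meiotic prophase, rose from 404, 474 and 480 CPM to 688, 802 and 615 CPM (limma adjusted p = 0.0036). Smc6, of the SMC5/6 complex of genome stability, spread widely among treated libraries, at 939, 1511 and 897 CPM. Its call was lost when any untreated library or treated library B was left out, with adjusted p from 0.06 to 0.12. The call of mt-Nd1, of respiratory complex I, was lost without untreated library A (adjusted p = 0.06) or C (0.053) or treated library B (0.059), and with no filter on low counts (0.16). Of the abundant falls, Ubb, a polyubiquitin gene, went from 694, 645 and 679 CPM to 465, 435 and 442 CPM, and Hk1, a hexokinase with a germ-cell form, from 657 ± 40.7 to 427 ± 78.6 CPM. Ndufaf3, an assembly factor of respiratory complex I, went from 377 CPM on average to 251 CPM, and oxamate alone also stood at 251 CPM.

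**Figure D2:**
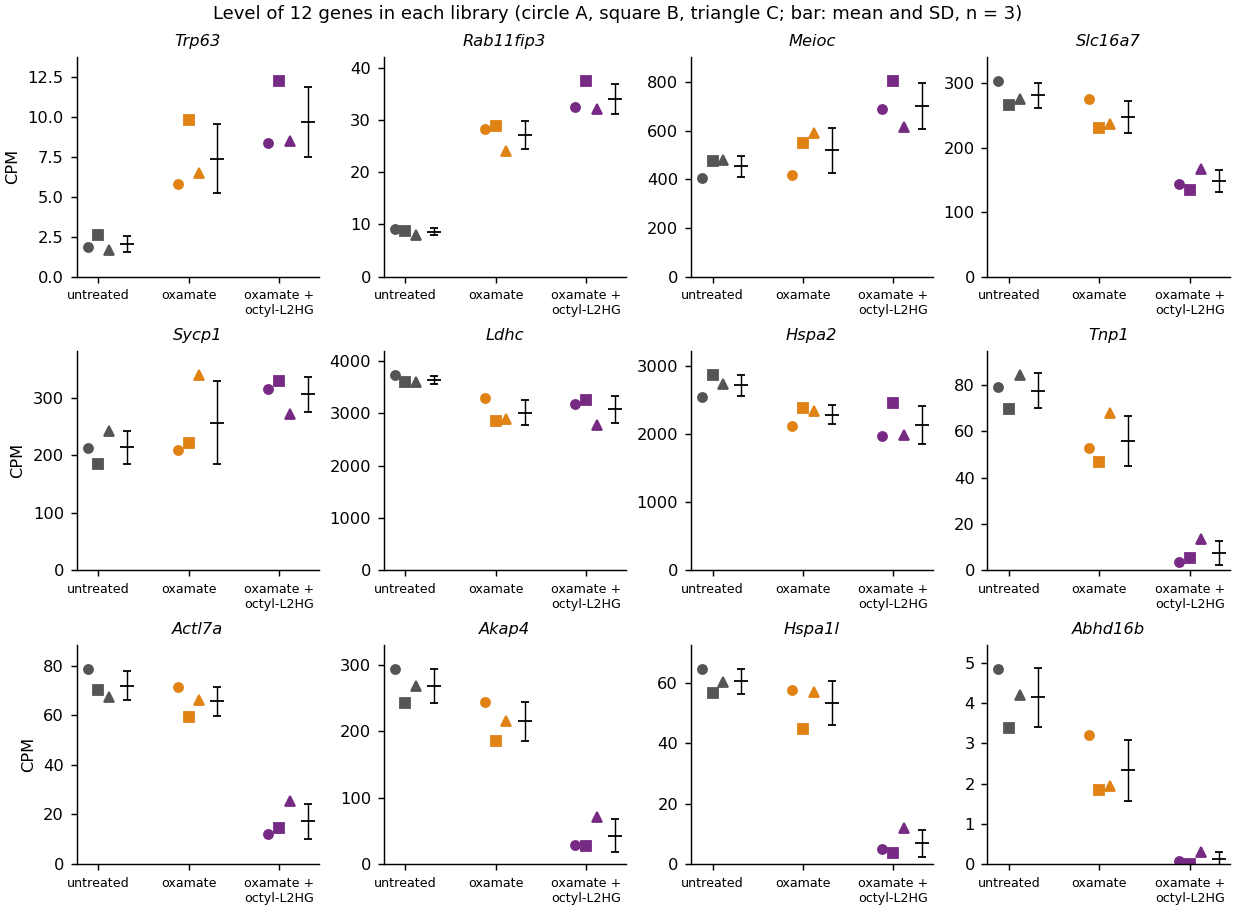
CPM of 12 genes in each of the 9 libraries, on linear axes from 0, with circles, squares and triangles for libraries A, B and C and a bar for the mean and SD of the 3 libraries of a group. Trp63 and Rab11fip3 have their highest means with the combination, Slc16a7 its lowest, and Tnp1, Actl7a, Akap4, Hspa1l and Abhd16b lie far below both other groups there, with library C the highest of its group for each of these 5.

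D2hgdh, which oxidizes D-2-hydroxyglutarate, read 2.86 ± 0.465 and 2.93 ± 0.415 CPM (log2 change 0.06, SE 0.17, limma adjusted p = 0.81). Adhfe1, a hydroxyacid-oxoacid transhydrogenase whose reaction yields D-2-hydroxyglutarate, rose with a log2 change of 0.62. In the list of lactate dehydrogenase and 2-hydroxyglutarate enzymes and transporters, 2 of 21 tested genes rose (9.52%) and 5 fell (23.8%), with a median log2 change of 0.05, beside 17.2% higher and 21.1% lower among all tested genes, so the list did not stand out. The falls numbered 2 without untreated library A and 3 without treated library C. The falls were those of Ldhd, a D-lactate dehydrogenase, Slc16a7, the monocarboxylate transporter MCT2, Mpc2, a subunit of the mitochondrial pyruvate carrier, Ldha and Ldhc.

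Slc16a7 went from 303, 266 and 275 CPM to 143, 134 and 167 CPM, with oxamate alone at 276, 230 and 237 CPM (log2 change -0.93, SE 0.10, limma adjusted p = 5.1e-05). Ldhd went from 3.75, 4.59 and 3.30 CPM to 1.26, 1.23 and 1.37 CPM, and oxamate alone was as low, at 1.15 ± 0.226 CPM. Ldha, a somatic subunit of lactate dehydrogenase, read 1254, 1249 and 1248 CPM in untreated libraries and 1123, 978 and 1029 CPM in treated ones (log2 change -0.26, limma adjusted p = 0.017). The germ-cell subunit Ldhc read 3728, 3594 and 3598 CPM and 3181, 3253 and 2783 CPM (log2 change -0.25, limma adjusted p = 0.029). Both calls were lost without untreated library A or treated library C, at adjusted p of 0.051 to 0.13. In a fit chosen after seeing the data, with the trends with length and GC content removed, Ldhc had a log2 change of -0.08 (limma adjusted p = 0.41). Ldhb had 1 to 8 counts in each library and was not tested.

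Markers of haploid spermatids fell as a group. The gene lists were chosen with earlier results of these data known, so their counts are a description. All 12 tested markers of elongating spermatids and 11 of 14 markers of round spermatids were called lower and none higher, against 21.1% of all tested genes called lower. Their median log2 changes were -3.26 and -1.23. The sum of the round spermatid markers went from 2360, 2358 and 2309 CPM to 1700, 1739 and 1731 CPM. Tnp1, a transition protein that replaces histones before the protamines (ENSMUSG00000026182, chromosome 1, 73015074 to 73015909), read 79.1, 69.4 and 84.2 CPM in untreated libraries and 52.9, 46.9 and 67.7 CPM with oxamate alone. With the combination it read 3.76, 5.41 and 13.4 CPM, a 12-fold fall (log2 change -3.58, SE 0.32, limma adjusted p = 2.0e-05). Prm1, a protamine, went from 61.5 ± 9.94 to 7.17 ± 6.01 CPM and Hspa1l, a spermatid heat shock protein, from 60.5 ± 4.05 to 6.78 ± 4.37 CPM. Treated library C was the least low for each of these genes, and all 12 elongating markers were also called lower without it. Crem, a transcription factor that drives spermatid genes, did not pass, at 213, 215 and 222 CPM and 201, 235 and 188 CPM (limma adjusted p = 0.56).

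Chromatin genes of spermatids fell with them. Of 18 tested protamines, transition proteins and testis histone variants 12 fell (66.7%) and 0 rose, beside 21.1% and 17.2% of all tested genes. The median log2 change was -2.47. The list's sum moved less, from 1543, 1420 and 1608 CPM to 1167, 1082 and 1149 CPM. Tnp2 went from 107 ± 12.1 to 8.85 ± 7.27 CPM and the linker histone H1f7 from 73.4, 63.3 and 62.2 CPM to 3.19, 3.48 and 11.4 CPM (limma adjusted p = 1.9e-05). The histone variant H2al2a fell with a log2 change of -4.27. The testis histones H2bc1 and H2ac1, which spermatocytes also express, fell less, with log2 changes of -0.67 and -0.60.

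Of 38 tested acrosome genes 26 fell (68.4%) and 1 rose (2.63%), beside 21.1% and 17.2% of all tested genes. The median log2 change was -1.32. The list's sum moved less, from 5836, 6280 and 6019 CPM to 5154, 5909 and 5165 CPM. Fam71f1 went from 50.4, 45.5 and 46.9 CPM to 10.8, 12.5 and 17.1 CPM (log2 change -1.85, SE 0.15, limma adjusted p = 1.4e-05). Actl7a, an actin-like protein of the developing acrosome, fell 4.40-fold, and Hyal5, a sperm hyaluronidase, had a log2 change of -2.33. Gopc, a Golgi protein needed to form the acrosome, rose with a log2 change of 1.07. Acrv1, an acrosomal matrix protein, read 47.0, 39.0 and 39.9 CPM in untreated libraries and 15.1, 17.7 and 29.8 CPM in treated ones (limma adjusted p = 0.0012).

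Of 27 tested ADAM proteins and sperm membrane chaperones, which ready the sperm surface for the egg, 17 fell (63%) and none rose (median -1.61). Among all tested genes 21.1% were called lower and 17.2% higher. The list's sum changed little, at 8508, 9700 and 9258 CPM in untreated libraries and 8196, 10411 and 8116 CPM in treated ones. Prss37 went from 22.4 ± 3.3 to 0.95 ± 0.742 CPM, and Ace, the angiotensin-converting enzyme with a testis form, from 134 ± 9.61 to 44.0 ± 6.87 CPM (limma adjusted p = 8.4e-06). Adam3, already a spermatocyte transcript, fell least of the 17, with a log2 change of -0.27. Of 23 testis-specific kinases and phosphatases 10 fell (43.5%) and 3 rose (13%), with a median of -0.38. Their sum read 3883, 4124 and 4072 CPM in untreated libraries and 3862, 4389 and 3744 CPM in treated ones. Tssk2 had a log2 change of -2.53 and Dusp21, an X-linked phosphatase, of -4.01, while Stk31, Mak and Ick rose by 0.85, 0.49 and 0.33.

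Of 52 tested axoneme and outer dense fibre genes 22 fell (42.3%) and 2 rose (3.85%), beside 21.1% and 17.2% of all tested genes. The median was -0.16, and the count higher was 0 without any 1 of the untreated libraries or treated library B. The list's sum read 31501, 34066 and 34197 CPM in untreated libraries and 30434, 36270 and 32925 CPM in treated ones. Akap4, a fibrous sheath anchor on the X chromosome, went from 294, 243 and 268 CPM to 28.6, 27.3 and 70.9 CPM (log2 change -2.79, limma adjusted p = 2.7e-05), Akap3 had a log2 change of -2.09 and Odf1 of -2.26. Among the tektins of the axoneme, Tekt1, Tekt2 and Tekt4 had log2 changes between -0.24 and -0.51 and Tekt5 of -0.92. Saxo1, a microtubule-stabilizing protein of the sperm tail named among the GO terms, had one of -3.58. Of 26 CatSper and other sperm ion channel genes 8 fell (30.8%) and 3 rose (11.5%), beside 21.1% and 17.2% of all tested genes. The median was -0.08, and 1 rose without untreated library C. Their sum read 5335, 6033 and 5602 CPM in untreated libraries and 5438, 6950 and 5532 CPM in treated ones. Atp1a4, the sperm sodium pump, had a log2 change of -3.11 and Catsper3 of -2.20. Of 35 intraflagellar transport and basal body genes 8 were called higher (22.9%, near the 17.2% of all tested genes) and 4 lower, with a median of 0.14, or 0.09 without untreated library A or C or treated library B. The count higher was 3 without untreated library A or C and 4 without untreated library B, and the count lower was 2 without treated library A.

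Of 31 tested transcription factors and co-regulators of spermatid programmes 11 fell (35.5%) and 6 rose (19.4%), beside 21.1% and 17.2% of all tested genes. Cdyl, a chromodomain protein highly expressed in testis, went from 60.3, 50.2 and 53.4 CPM to 2.82, 2.42 and 8.52 CPM (13.7-fold, limma adjusted p = 1.5e-05). Fhl5, also called ACT, the partner of CREM, went from 37.2 ± 5.32 to 4.02 ± 2.32 CPM, and Sox5 had a log2 change of -1.95. Mybl1, encoding A-MYB, the master factor of pachytene transcription, rose from 264, 325 and 296 CPM to 469, 563 and 431 CPM (log2 change 0.72, limma adjusted p = 0.0013). Brwd1 and Taf7 also rose, by 0.42 and 0.65.

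**Figure D3:**
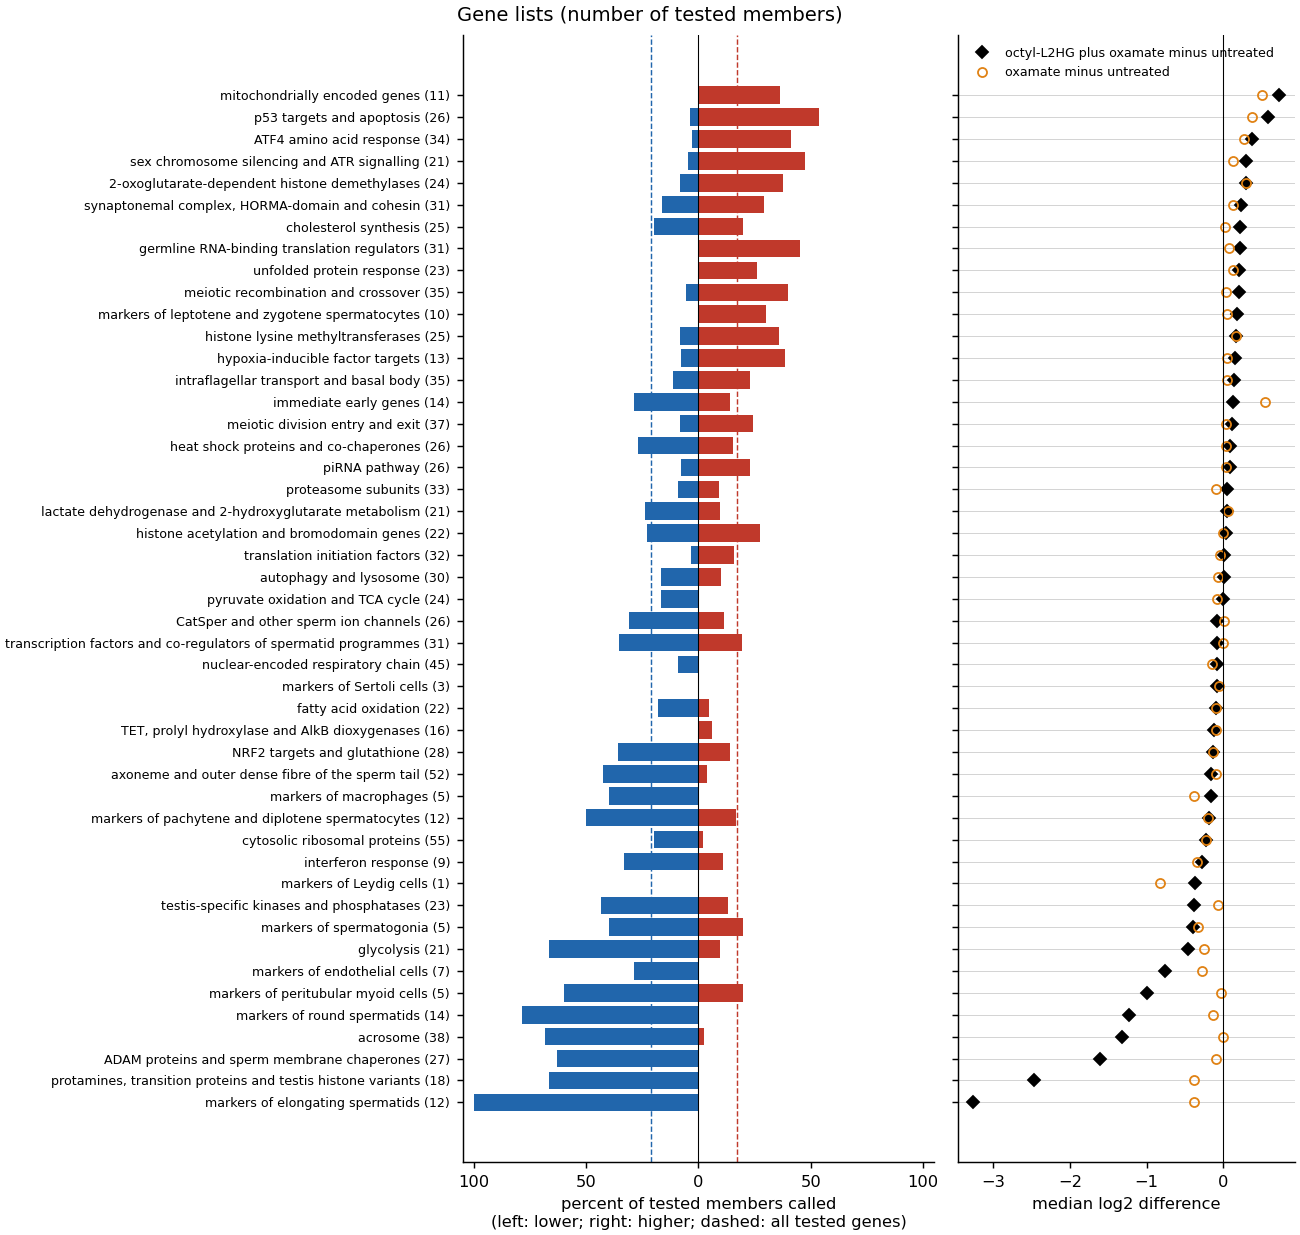
The gene lists with a tested member, ordered by the median log2 change. On the left, the percent of tested members called lower (blue, to the left) and higher (red, to the right), with dashed lines at the 21.1% and 17.2% of all tested genes; on the right, the median log2 difference from untreated of the combination (black diamonds) and of oxamate alone (orange circles). The lists of elongating and round spermatid markers, protamines with testis histone variants, ADAM proteins and acrosome genes lie lowest. Their circles lie nearer to 0 than their diamonds. The lists of the axoneme, sperm ion channels and testis-specific kinases lie higher.

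Beside the 17.2% of all tested genes called higher, the lists of meiotic prophase genes held 40%, 29% and 47.6%, in the order given here, and these counts rested on single libraries. Of 35 tested meiotic recombination and crossover genes 14 rose and 2 fell (median 0.21), of 31 synaptonemal complex, HORMA-domain and cohesin genes 9 rose and 5 fell (median 0.23), and of 21 genes of sex chromosome silencing and ATR signalling 10 rose and 1 fell (median 0.30). Terb1, which ties meiotic telomeres to the nuclear envelope, went from 55.2, 57.9 and 59.9 CPM to 116, 147 and 116 CPM (log2 change 1.11, SE 0.13, limma adjusted p = 5.4e-05), and its partners Terb2 and Majin rose by 1.45 and 0.60. Hormad2, an unsynapsed-axis protein, rose from 8.82 ± 0.715 to 17.5 ± 0.70 CPM. Ccdc36 and Ankrd31, which act in double-strand break formation, rose by 0.92 and 0.72, and the strand exchange gene Brca2 by 0.58. The cohesin gene Rec8 and the central element gene Syce2 fell, by 1.12 and 1.08 on the log2 scale. The recombination rises were 4 without untreated library B and 5 without untreated library C, where the rises over all genes were 2087 and 1968, shares of the list close to those of all genes. They were 7 without treated library A, 9 without treated library C and 8 with libraries scaled by their totals alone. The rises of the silencing list were 5 without untreated library B or C, and those of the synaptonemal list 5 without untreated library B.

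The marker genes of the labelled stage itself showed small and mixed differences. Of 12 tested pachytene and diplotene markers 2 rose and 6 fell, with a median of -0.19, and the count lower was 3 without treated library A or C. Spag6 was the deepest fall, from 75.2, 60.4 and 64.6 CPM to 19.8, 19.9 and 36.5 CPM. Sycp1, of the synaptonemal transverse filament, read 213, 186 and 243 CPM and 316, 330 and 273 CPM, and its call (limma adjusted p = 0.029) was lost without untreated library A or B or treated library A or B, at adjusted p from 0.077 to 0.14. Sycp3 read 168 ± 12.6 and 206 ± 31.9 CPM (limma adjusted p = 0.13), Ddx4, the germline helicase, 950, 1074 and 1049 CPM and 1099, 1333 and 1064 CPM (limma adjusted p = 0.21), and Piwil1 662, 623 and 665 CPM and 637, 490 and 700 CPM (limma adjusted p = 0.51). Ccna1, a meiotic cyclin gene, did not pass either, with a log2 change of -0.12. The testis chaperone gene Hspa2 read 2556, 2870 and 2735 CPM and 1977, 2464 and 1986 CPM (log2 change -0.35, limma adjusted p = 0.011), a call lost without treated library A. With the trends with length and GC content removed, the calls of Hspa2 and Sycp1 were lost too. Their log2 changes there were -0.21 and 0.27 (limma adjusted p = 0.21 and 0.17). Of 10 markers of leptotene and zygotene cells 3 rose and none fell (median 0.18), and 1 rose without untreated library B or C.

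Of 37 tested genes of meiotic division entry and exit 9 rose (24.3%) and 3 fell (8.11%), beside 17.2% and 21.1% of all tested genes. The median was 0.11, 5 rose without untreated library C and 6 fell without treated library B. Cdk2, which binds meiotic telomeres and crossover sites, read 89.5, 84.0 and 88.1 CPM and 142, 118 and 133 CPM (limma adjusted p = 0.00025), and the kinesin Kif11 rose with a log2 change of 0.68. Ccnb1, encoding cyclin B1, had a log2 change of -0.34 (limma adjusted p = 0.033), which did not pass without untreated library A or B or treated library C. Of 26 piRNA pathway genes 6 rose (23.1%, near the 17.2% of all tested genes) and 2 fell (7.69%), with a median of 0.09. Only 3 rose without untreated library B or C or treated library A, or with scaling by library totals. The germline RNA-binding translation regulators rose without a fall: 14 of 31 (45.2%), with a median of 0.22, and 9 without any 1 of the untreated libraries. Among them Dazl rose by 0.80 and Celf1 by 0.68, and Rbm46 went from 104, 118 and 112 CPM to 159, 169 and 154 CPM (limma adjusted p = 0.0011).

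The X chromosome held a larger share of falls than the autosomes, a difference given as a description. Of 409 tested X-linked genes 191 (46.7%) were called lower and 40 (9.78%) higher, with a median log2 change of -0.63, against 20.5% lower, 17.4% higher and a median of 0.02 for autosomal genes. No single autosome passed 23.5% called lower. The X-linked median was 0.25 for oxamate alone minus untreated and -0.91 for the combination minus oxamate alone. Of 49 tested Y-linked genes 16 fell (32.7%) and 2 rose, with a median of -0.41. The count of Y-linked falls rested on single libraries, with 9 lower without untreated library A and 7 without treated library A. The 40 X-linked rises became 24 without untreated library A or C.

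The named X-linked genes here were chosen after their values were seen, by the smallest p among those with a mean of at least 1 CPM in either group. Zfp185 (ENSMUSG00000031351, X chromosome, 72987339 to 73031543) went from 2.49, 2.89 and 2.88 CPM to 0.21, 0.22 and 0.152 CPM (log2 change -3.75, SE 0.27, limma adjusted p = 1.1e-05). Pja1, a ubiquitin ligase gene, Sh3kbp1, an endocytic adaptor, and Samt3 fell with log2 changes of -2.61, -2.77 and -2.88. The X-linked histone variant H2al3 had a log2 change of -4.41. Other X-linked genes rose: Fmr1, an RNA-binding protein gene lost in fragile X syndrome, read 3.98, 4.22 and 5.13 CPM in untreated libraries, 7.71, 11.1 and 10.2 CPM with oxamate alone and 10.3, 11.8 and 12.1 CPM with the combination (limma adjusted p = 9.6e-05). Atp6ap2, of the vacuolar proton pump, rose from 0.398 ± 0.0724 to 1.53 ± 0.0691 CPM, and Ofd1, a centriole gene, had a log2 change of 1.02. The spermatid markers fell in the same libraries in which the X-linked genes fell, and their part in that result was not tested. Xist had 1 to 5 counts in each library.

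**Figure D4:**
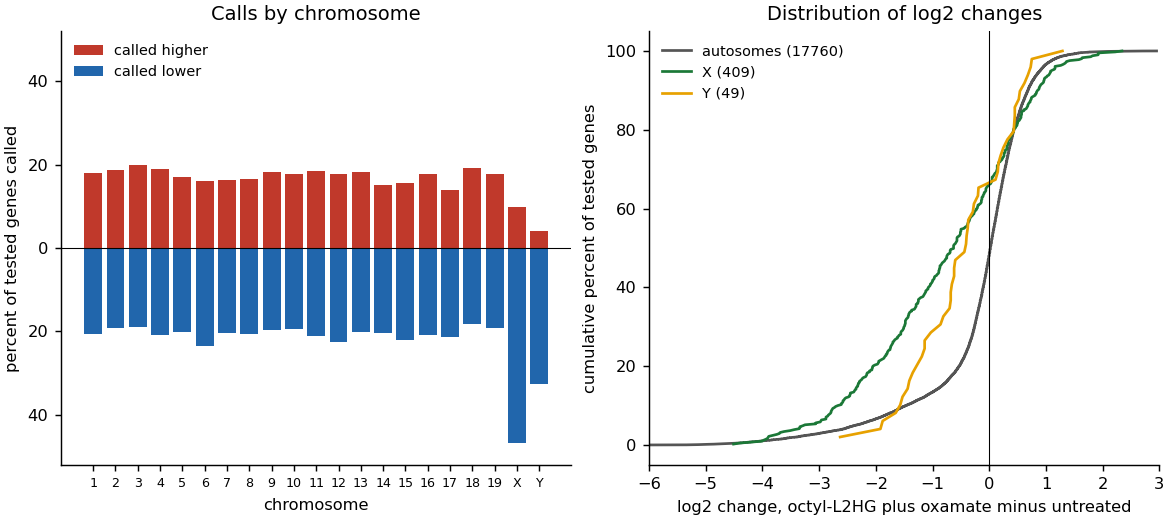
On the left, percent of tested genes called higher (red, upward) and lower (blue, downward) on each chromosome. On the right, cumulative percent of genes by log2 change, octyl-L2HG plus oxamate minus untreated, for autosomes, X and Y. The X bar for falls, 46.7%, stands out from the autosomes, and the X curve lies to the left over most of its range and crosses the autosomal curve above 0.

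Among the 2-oxoglutarate-dependent histone demethylases, 9 of 24 tested genes rose (37.5%) and 2 fell (8.33%), beside 17.2% and 21.1% of all tested genes. The median log2 change was 0.30, and the median between oxamate alone and untreated was 0.29. Jmjd1c read 133, 142 and 140 CPM in untreated libraries, 176, 190 and 203 CPM with oxamate alone and 253, 241 and 246 CPM with the combination (log2 change 0.84, SE 0.08, limma adjusted p = 2.2e-05). Kdm2b was as high with oxamate alone, at 96.0, 101 and 96.3 CPM, as with the combination, at 94.5, 99.2 and 97.6 CPM, from 63.7, 66.5 and 62.5 CPM in untreated libraries. Kdm3a, Kdm5a and Kdm6b rose by 0.58, 0.73 and 0.97. The X-linked Phf8 fell, with a log2 change of -2.53, as did Kdm4b, with -0.73. The count lower was 1 without untreated library A or any 1 of the treated libraries. In the list of TET enzymes, prolyl hydroxylases and AlkB homologues, only 1 of 16 tested genes was called higher (6.25%) and none lower. This was Alkbh5, an RNA m6A demethylase, from 54.7, 52.9 and 52.1 CPM to 91.5, 83.6 and 98.2 CPM (limma adjusted p = 6.0e-05), and the list's median was -0.12.

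Of 25 tested histone lysine methyltransferases 9 rose (36%) and 2 fell (8%), beside 17.2% and 21.1% of all tested genes. The median was 0.16, or 0.10 without untreated library C, and the count lower was 1 without untreated library B or treated library A or C. Kmt5a, the H4K20 monomethylase, read 19.3, 20.6 and 20.5 CPM and 31.9, 40.5 and 34.4 CPM (limma adjusted p = 0.0002), and Setdb1, an H3K9 methyltransferase, 92.5, 89.7 and 95.1 CPM and 117, 118 and 127 CPM. The testis H3K9 methyltransferase Suv39h2 fell with a log2 change of -0.59. Of 22 histone acetylation and bromodomain genes 6 rose (27.3%) and 5 fell (22.7%), with a median of 0.04. The deacetylase Hdac11 fell with a log2 change of -2.14.

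Genes of stress responses rose in several lists. The list of p53 targets and apoptosis genes had a median of 0.58. Of its 26 tested genes 1 fell (3.85%) and 14 rose (53.8%), beside 21.1% and 17.2% of all tested genes. Beside Trp63 these included Cflar, a caspase-8 inhibitor, from 1.76, 2.04 and 1.92 CPM to 5.78, 5.46 and 5.83 CPM (limma adjusted p = 5.5e-05), and Sesn1, a sestrin, from 5.58, 4.81 and 5.01 CPM to 12.7, 9.94 and 10.5 CPM. The BH3-only gene Pmaip1 and the sestrin gene Sesn2 rose by 1.11 and 1.04, and Bcl2l11, another BH3-only gene, had a log2 change of -2.14. Of 34 genes of the ATF4 amino acid response 14 rose (41.2%) and 1 fell (2.94%), with a median of 0.37. Slc38a2, an amino acid transporter, went from 10.4, 6.89 and 7.62 CPM to 32.9, 16.2 and 27.0 CPM (limma adjusted p = 0.00058), Ddit4 rose by 2.13 and Aldh1l2 by 2.06. Asns, asparagine synthetase and a leading target of ATF4, went the other way, from 24.6, 19.3 and 21.5 CPM to 4.35, 3.48 and 6.65 CPM (log2 change -2.20, limma adjusted p = 1.9e-05), with oxamate alone at 20.4, 17.0 and 18.8 CPM.

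The unfolded protein response list had 6 of 23 tested genes higher and none lower (median 0.21). Its share higher was 26.1%, beside 17.2% of all tested genes. The rises included Ern1, the stress sensor IRE1, and the chaperones Hyou1 and Canx, with log2 changes of 0.92, 0.61 and 0.54. Of 13 hypoxia-inducible factor targets 5 rose (38.5%) and 1 fell (7.69%), with a median of 0.15, and 3 rose without untreated library A or C or treated library A. Vegfa went from 3.13, 2.26 and 1.71 CPM to 7.5, 5.24 and 7.28 CPM (limma adjusted p = 0.00057), and Pfkfb3, a glycolytic regulator, had a log2 change of -2.15. NRF2 targets and glutathione genes fell more than they rose, 10 against 4 of 28 (median -0.14). These were 35.7% and 14.3%, beside 21.1% and 17.2% of all tested genes. The peroxiredoxin Prdx4, X-linked, went from 18.7, 16.1 and 14.5 CPM to 2.29, 1.41 and 4.26 CPM, and Srxn1, the sulfiredoxin, had a log2 change of -2.78. Of 26 heat shock and co-chaperone genes 4 rose (15.4%) and 7 fell (26.9%), with a median of 0.09 and 4 falls without treated library A. Of 14 immediate early genes 2 rose (14.3%) and 4 fell (28.6%). Their median was 0.13 with the combination, -0.26 without treated library C, and 0.54 for oxamate alone minus untreated. Klf4 went from 73.7, 66.7 and 66.5 CPM to 22.9, 19.3 and 41.8 CPM (limma adjusted p = 0.00038).

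Glycolysis genes fell, 14 of 21 tested (66.7%) against 2 that rose (9.52%), with a median of -0.46. Among all tested genes 21.1% fell and 17.2% rose. The list holds enzyme forms of spermatids, among them Gapdhs, which went from 156 ± 20.4 to 26.3 ± 15.4 CPM, and Aldoart1 and Aldoart2, with log2 changes of -1.76 and -2.21. General enzymes fell too: Pkm, pyruvate kinase, averaged 31.1 ± 1.66 CPM in untreated and 7.02 ± 1.8 CPM in treated libraries (4.45-fold lower, limma adjusted p = 9.1e-06), with oxamate alone at 28.7, 24.7 and 27.9 CPM. Gpi1 went from 38.6, 34.7 and 34.3 CPM to 14.1, 16.6 and 16.1 CPM, and Aldoa and Eno1 both had log2 changes of -0.62. Pgam1 and Pfkp rose by 0.54 and 0.40. The list's count higher was 1 without untreated library B or treated library A, 0 without untreated library C and 3 without treated library B.

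Few genes of oxidative metabolism passed. Of 24 genes of pyruvate oxidation and the TCA cycle none rose and 4 fell (16.7%). That share lower was near the 21.1% of all tested genes, of which 17.2% were called higher. Fh1, fumarate hydratase, went from 9.72, 7.04 and 6.66 CPM to 1.60, 1.72 and 2.13 CPM (limma adjusted p = 3.8e-05). The X-linked Pdk3, a pyruvate dehydrogenase kinase, had a log2 change of -2.05. The list's count lower was 2 without untreated library A or C or treated library C. Of 45 nuclear-encoded respiratory chain genes none rose and 4 fell (8.89%, median -0.08), 0 without untreated library A and 7 without treated library A. The log2 change of each of the 11 tested mitochondrially encoded genes was positive, their median was 0.73, or 0.37 without treated library B, and 4 were called higher, or 2 without untreated library A or C or treated library B. mt-Co1, of complex IV, read 1611, 1700 and 1693 CPM and 2230, 2729 and 2198 CPM (limma adjusted p = 0.0021). Of 55 cytosolic ribosomal protein genes 1 rose (1.82%), with a median of -0.22, and 11 fell (20%), near the share lower among all tested genes. That count was 0 without untreated library A, 2 without treated library C, 4 without untreated library C, 6 without treated library B, 4 with scaling by library totals and 20 without treated library A, and the median was -0.23 for oxamate alone minus untreated.

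The remaining lists showed no common direction. Their counts stand beside the 17.2% of all tested genes called higher and the 21.1% called lower. Of 33 proteasome subunit genes 3 rose and 3 fell, of 32 translation initiation factors 5 rose and 1 fell, of 25 cholesterol synthesis genes 5 rose and 5 fell, of 22 fatty acid oxidation genes 1 rose and 4 fell, of 30 autophagy and lysosome genes 3 rose and 5 fell, and of 9 interferon response genes 1 rose and 3 fell. Without single libraries the rises ranged from 1 to 6 for cholesterol synthesis and from 3 to 5 for initiation factors, and the autophagy list had 1 rise without any 1 of the untreated libraries and 2 falls without untreated library A. The proteasome list had 1 fall without untreated library A or C or treated library C, and the fatty acid oxidation list 2 without untreated library C or treated library C. Within the cholesterol list, Hmgcs1, an early enzyme of the pathway, went from 26.1, 24.2 and 26.6 CPM to 48.0, 50.4 and 47.5 CPM (limma adjusted p = 3.8e-05), while Cyp51, a later one with a known spermatid transcript, went from 26.2, 23.2 and 23.3 CPM to 6.01, 7.74 and 10.3 CPM (limma adjusted p = 4.6e-05). Eif4g1, a scaffold of cap-dependent initiation, fell from 111, 101 and 98.0 CPM to 38.4, 30.9 and 55.3 CPM (log2 change -1.33).

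Markers of Sertoli, Leydig, red blood, macrophage and endothelial cells were low, while those of peritubular myoid cells and spermatogonia summed higher. Among all tested genes 17.2% were called higher and 21.1% lower. Only 3 of 13 Sertoli markers and 1 of 9 Leydig markers passed the filter on low counts, none was called, and the sums ran from 2.20 to 3.36 and from 2.92 to 3.96 CPM over the 6 libraries. Red blood cell markers had no count in these 6 libraries. Of 5 tested peritubular myoid markers 1 rose and 3 fell, and the list's sum went from 95.9, 93.4 and 75.1 CPM to 55.8, 64.2 and 55.9 CPM. Much of that was Actg2, a smooth muscle actin, which went from 43.4, 32.9 and 33.5 CPM to 4.22, 2.95 and 8.62 CPM. Of 5 tested macrophage and 7 endothelial markers 2 fell in each list, with sums of at most 12.1 and 10.7 CPM. The macrophage falls were 1 when any library but untreated library B was left out, and the endothelial falls were 4 without treated library C. Of 5 tested spermatogonial markers 1 was called higher and 2 lower, with sums from 44.5 to 64.6 CPM. The count higher was 0 when any library but treated library B was left out, and the count lower was 1 when any but untreated library A was left out.

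The deposited table names Gene Ontology (GO) terms for each gene, and 1009 terms had at least 30 tested genes. The 10 terms with the highest share called lower held 445 distinct tested genes, of which 181 were lower, and since they were chosen on these calls their shares are a description. The highest was acrosomal vesicle, with 45 of 103 lower (43.7%), beside 21.1% of all tested genes. FAD binding and microtubule-based process followed, each with 13 of 30 (43.3%), then cation transmembrane transport with 19 of 45 and sperm flagellum with 21 of 50. The median log2 changes of the 10 terms were small, from -0.13 for nucleosome to -0.51 for FAD binding, with acrosomal vesicle at -0.20. Flagellated sperm motility (31 of 75), structural constituent of cytoskeleton (20 of 49) and nucleosome (18 of 45) also stood among the 10. Tuba8, an alpha-tubulin in both the microtubule and cytoskeleton terms, went from 42.1, 36.8 and 37.6 CPM to 1.05, 1.10 and 3.42 CPM (log2 change -4.58, SE 0.31, limma adjusted p = 8.4e-06). In FAD binding the lowest p belonged to Mical3 and Mical2, actin-oxidizing enzymes, with log2 changes of -2.21 and -2.45, and to Sqor, a mitochondrial sulfide oxidase, with -2.07. Wbp2nl, a sperm-head protein listed under sperm flagellum, went from 12.8, 11.1 and 10.8 CPM to 0.589, 0.484 and 1.09 CPM (limma adjusted p = 6.4e-06).

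A pair of the terms with many falls have names from other tissues. Positive regulation of T cell proliferation had 13 of 31 genes lower, among them Cd46, a complement regulator that mice express on the acrosome, Prkcq, a protein kinase C, and Aif1, with log2 changes of -3.03, -2.54 and -2.25. Positive regulation of synapse assembly had 14 of 35 lower, among them the neurotrophin receptor gene Ntrk3, with a 4.01-fold fall, and Adgrl3, a latrophilin, with a log2 change of -1.24. The macrophage and endothelial markers had the sums and falls given above, and which cells the falls in these terms came from was not tested.

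The 10 terms with the highest share called higher held 370 distinct tested genes, of which 170 were higher. They too were chosen on these calls, and 17.2% of all tested genes were called higher. The median log2 changes of the 10 terms ran from 0.20 for membrane fusion to 0.40 for somitogenesis. Regulation of alternative mRNA splicing, via spliceosome led the terms, with 32 of 60 higher (53.3%) and 7 lower, and 17 or 18 higher without any 1 of the untreated libraries. Ddx17, an RNA helicase of splicing, rose from 177, 172 and 164 CPM to 291, 252 and 303 CPM (limma adjusted p = 9.6e-05), and the splicing factor Srsf6 had a log2 change of 0.63. Rest, a transcriptional repressor listed in the same term, rose by 1.11. Telomere maintenance had 17 of 36 higher, or 7 without untreated library C and 10 without untreated library B. Its smallest p belonged to Wrn, a RecQ helicase with an exonuclease, from 80.2, 87.9 and 77.3 CPM to 171, 218 and 170 CPM (2.26-fold, limma adjusted p = 3.4e-05), and Rif1, a protein of replication timing and break repair, rose by 0.70. Exonuclease activity had 19 of 41 higher, 12 without untreated library C, and included Pnpt1, the mitochondrial polynucleotide phosphorylase, from 11.3, 9.67 and 11.3 CPM to 27.7, 30.2 and 26.4 CPM.

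Membrane traffic made up several of the other terms. Rab guanyl-nucleotide exchange factor activity had 15 of 31 higher, among them Dennd5b, which rose from 82.4, 72.3 and 79.6 CPM to 155, 141 and 155 CPM (limma adjusted p = 2.0e-05), and Dennd4c, with a log2 change of 0.77. Rab protein signal transduction had 19 of 43 higher, 12 without untreated library C, with Rab6a, a GTPase of the Golgi, from 124 ± 9.28 to 262 ± 38.1 CPM. Membrane fusion had 15 of 34 higher, among them the SNARE gene Vamp2, with a log2 change of 0.99. Condensed chromosome had 14 of 30 higher, 9 without untreated library C, including Baz1b, a chromatin remodeller subunit, from 14.3, 15.2 and 16.3 CPM to 27.7, 31.9 and 32.3 CPM. SMAD binding (20 of 44), somitogenesis (15 of 33) and RNA polymerase II repressing transcription factor binding (14 of 32, 9 without untreated library A) completed the 10, with log2 changes of 1.19 for Skil, a SMAD co-repressor, and of 0.94 for Sp1, a GC-box factor.

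Genes called higher and lower are described next by their structure, with no test. By the GENCODE annotation of GRCm38, the build of the deposited table, the median exonic length was 5552 bp for protein-coding genes called higher, 3553 bp for those called lower and 4358 bp for all 13512 with a value. In the shortest quintile 30.1% were called lower and 8.55% higher, and in the longest quintile 16.9% and 27.8%. The GC content of the longest transcript ran the other way, with 29.6% called higher and 14.6% lower in the quintile of lowest GC and 10.9% and 22.2% in the highest. Of 350 single-exon genes 35.1% were called lower, against 19.3% of genes with several exons. In a fit chosen after seeing the data, with the trends with length and GC content removed, 3198 genes were called higher and 3828 lower, and the X-linked median was -0.67. In that fit 10 glycolysis genes fell and 3 rose, 4 ribosomal protein genes fell and 2 rose, and 12 respiratory chain genes rose and 2 fell, with a median of 0.06. Long noncoding RNA genes fell more often than they rose, 29.7% of 3175 against 9.80%, with a median of -0.15.

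Their promoters are described in the same way. RefSeq promoter windows of GRCm38.p6, from 250 bases before to 50 after a gene's start, were matched by symbol for 12443 tested genes. The median number of CG dinucleotides was 23 in genes called higher, 9 in genes called lower and 4 in those that fell at least 4-fold, against 18 over all. Windows with at most 5 of them belonged to 20.7% of all tested genes with a window, 9.19% of those called higher, 39.7% of those called lower and 59.5% of those that fell at least 4-fold. Of the 2574 genes with such a window 41.5% were called lower, against 13.5% of the genes with over 25 CG dinucleotides. Windows of genes that fell and of genes that rose are printed to show this contrast, with each CG in capitals. Abhd16b (chr2:181492956-181493255, plus strand) holds 3, Hils1, a spermatid linker histone gene with a log2 change of -2.93 (chr11:94967343-94967642, plus strand), holds 0 and Tnp1 (chr1:73015850-73016149, minus strand) holds 6. Rab11fip3 (chr17:26069469-26069768, minus strand) holds 30 and Meioc (chr11:102665335-102665634, plus strand) 28. Trp63 had no entry in the table.
Abhd16b: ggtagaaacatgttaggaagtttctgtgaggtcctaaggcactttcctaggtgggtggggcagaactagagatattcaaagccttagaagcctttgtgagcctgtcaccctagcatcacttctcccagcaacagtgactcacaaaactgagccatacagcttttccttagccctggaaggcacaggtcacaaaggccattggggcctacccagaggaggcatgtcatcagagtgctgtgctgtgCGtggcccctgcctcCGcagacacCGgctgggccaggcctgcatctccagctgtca
Tnp1: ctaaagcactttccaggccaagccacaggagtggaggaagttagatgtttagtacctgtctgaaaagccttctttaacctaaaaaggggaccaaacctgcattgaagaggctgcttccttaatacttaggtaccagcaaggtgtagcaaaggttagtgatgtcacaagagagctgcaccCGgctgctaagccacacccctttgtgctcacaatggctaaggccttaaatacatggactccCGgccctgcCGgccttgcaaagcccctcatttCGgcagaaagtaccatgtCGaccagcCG
Hils1: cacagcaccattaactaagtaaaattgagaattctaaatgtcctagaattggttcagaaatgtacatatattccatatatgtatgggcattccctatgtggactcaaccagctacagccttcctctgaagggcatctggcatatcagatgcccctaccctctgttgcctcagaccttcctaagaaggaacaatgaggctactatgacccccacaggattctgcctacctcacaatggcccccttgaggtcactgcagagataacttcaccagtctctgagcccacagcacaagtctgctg
Rab11fip3: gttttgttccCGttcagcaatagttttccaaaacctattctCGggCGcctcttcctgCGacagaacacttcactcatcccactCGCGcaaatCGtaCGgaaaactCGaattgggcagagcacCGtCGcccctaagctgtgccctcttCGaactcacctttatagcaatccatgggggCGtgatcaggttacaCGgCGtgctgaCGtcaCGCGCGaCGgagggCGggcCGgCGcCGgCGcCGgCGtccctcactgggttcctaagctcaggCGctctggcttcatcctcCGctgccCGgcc
Meioc: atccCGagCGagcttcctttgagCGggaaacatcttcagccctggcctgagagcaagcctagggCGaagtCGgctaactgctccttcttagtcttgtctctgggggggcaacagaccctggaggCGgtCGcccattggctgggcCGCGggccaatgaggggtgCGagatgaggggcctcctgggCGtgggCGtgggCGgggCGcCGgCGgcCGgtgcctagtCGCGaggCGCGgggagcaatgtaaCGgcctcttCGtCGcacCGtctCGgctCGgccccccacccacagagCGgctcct

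**Figure D5:**
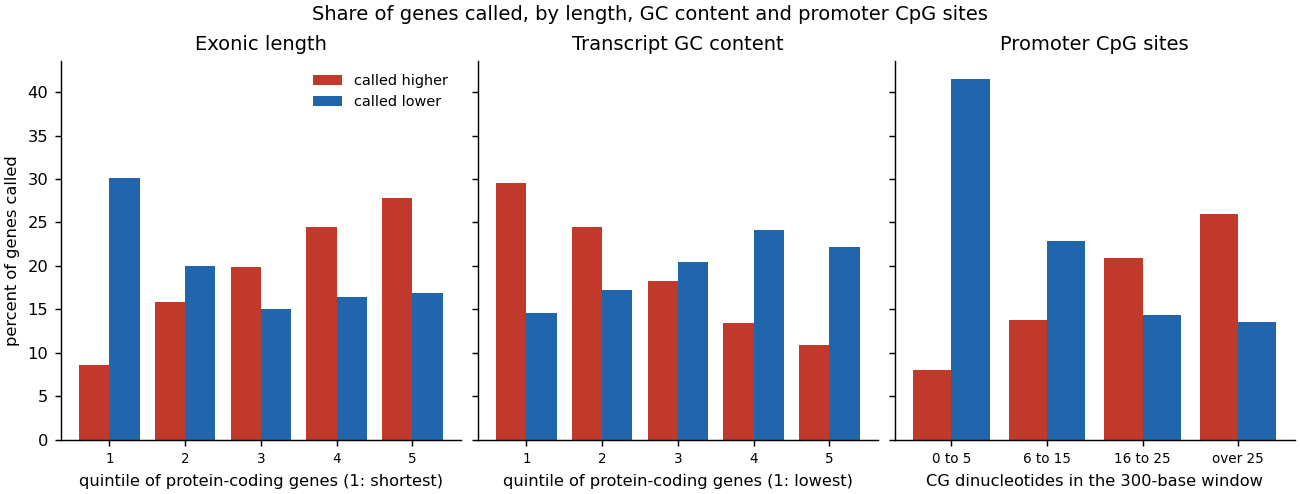
Percent of genes called higher (red) and lower (blue), from left to right by quintile of exonic length, by quintile of transcript GC content and by the number of CG dinucleotides in the promoter window. Falls are commonest in short genes and in windows with 0 to 5 CG, where 41.5% fell, and rises in long genes, at low transcript GC and in windows with over 25 CG.

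Known motifs were counted in these windows. Each was searched as exact letters on both strands. The GC box, GGGCGG, was in 54.1% of all windows, 65.9% of those of genes called higher, 40.3% of those called lower and 26.2% of those that fell at least 4-fold. The ETS site, CCGGAAG, was in 16.2%, 19.8%, 7.7% and 3.23%. Both hold a CG. The cAMP response element TGACGTCA, to which CREM binds, was in 3.02%, 3.06%, 2.71% and 2.03%, and the CCAAT box in 38.9%, 40.6%, 38.6% and 36%. The E-box CACGTG was in 9.27%, 11.3%, 7.96% and 5.85%. The cAMP response element and the E-box each hold a CG as well, and the CCAAT box does not. GTTGCC, part of the RFX X-box, was in 14.1%, 12.4%, 16.3% and 15.3%, and CAGTTG, a MYB core, in 12%, 10.2%, 14.4% and 14%. Neither of these last motifs holds a CG. A match is only a run of letters, and these shares were not tested.

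The authors' deposited table, made with DESeq2, gave an adjusted p for 26033 genes, of which 3197 were higher and 3787 lower at the same threshold. Of the genes called here, 6186 were also called there in the same direction and 0 in the opposite one. For Trp63 the authors' deposited table gives a log2 fold change of 2.24 with a standard error of 0.18, and for Abhd16b -4.97 with 0.53.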

How the data were processed

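The deposited table, read with the genome build GRCm38, holds raw counts per gene and library made by the authors. Per the submitters' processing notes the tools were TopHat2 2.1.1, HTSeq 0.6.0, DESeq2 1.22.2, cutadapt 1.18 and bcl2fastq 2.18.0.12, with no settings given. Cells with a question mark leave 6255 of 55471 genes without counts, and these were left out. The 9 normalized columns were not used. The deposited log2 fold changes, standard errors and adjusted p-values are the authors' own and were only quoted.

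Because of the question marks the raw columns could not be typed as counts, so limma 3.58.1 in R 4.3.3 was used throughout, with voom weights, scaling by the trimmed mean of M values (30% of log ratios and 5% of log levels trimmed), all 9 libraries in 3 groups and robust empirical Bayes. Genes were kept that reached, in at least 3 libraries, the CPM of 10 counts in the median library, with a total of at least 15. Benjamini-Hochberg adjustment ran over the 18234 genes kept of 49216 with counts, at a threshold of 0.05. The fit was tested on simulated data. All values of the file's raw columns that are not question marks are whole, and a library's total sets the counting precision.

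The members and lists were chosen with earlier results of these data known. Genes named are the 12 largest rises and falls among called genes whose groups do not overlap, with a mean of at least 2 CPM in the higher group and an established symbol; of these, the 5 most abundant in each direction with at least a 1.5-fold change; from each list the 3 genes of smallest p; and fixed genes of lactate dehydrogenase, 2-hydroxyglutarate and germ cell stages. Other list members, X-linked, mitochondrial and GO term members were named after their values were seen. Alternatives were other scalings, filters, fits and left-out libraries, and a fit with the trends with length and GC content removed, which was chosen after seeing the data. Libraries of a group differed by far more than sampling noise, with a chi-square per degree of freedom of at least 6.56, so none was counted as a repeat of another. Some genes are not reported here.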

Additional observations from a re-analysis of the deposited data

How the results depend on the processing

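The number of genes called was 6983 with median-of-ratios scaling, 6931 with the upper quartile, 6510 with library totals, 6900 with no filter, 5829 with at least 1 CPM in 3 libraries, 6892 with limma-trend, 6979 without the robust step and 6624 with the 6 libraries alone. Leaving out 1 library gave 5192 to 6661 calls, 1968 to 2955 of them higher and 3021 to 3706 lower, and the cause of the lower counts of rises without untreated library B (2087) or C (1968) was not tested. With the trends with length and GC content removed, an alternative chosen after seeing the data, 7026 genes were called, 5909 of them shared in direction and 1 opposite; no shared call was opposite under the other alternatives. The median of the respiratory chain list turned from -0.08 to 0.06 there, and that of the immediate early genes from 0.13 to -0.26 without treated library C. Depth limits single genes under about 1 CPM and the cell type markers that did not reach the filter.

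The letters A to C are not said to pair libraries. Since no label pairs them, they were not taken as pairs. The deviations of same-letter libraries correlated at 0.27 for A, 0.46 for B and 0.04 for C. Those of untreated and treated libraries with different letters correlated at -0.48 to 0.29. With the letter as a replicate block 9112 genes were called, 4444 higher and 4668 lower, and 6983 of the calls without the block were among them.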
